A study of Mus musculus with 176 samples.

Results

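The cells described here are the CD4 T cells of an immunized mouse lymph node that did not bind the P6 tetramer (P6- cells), divided by their content of Foxp3 mRNA. A P6- cell was called Foxp3-high when it held at least 10 reads of Foxp3 and Foxp3-low when it held fewer, and cells entered only with at least 500000 reads, 2000 detected genes and under 10% mitochondrial reads. Of 144 sorted P6- cells, 129 passed, and 19 of them were Foxp3-high and 110 Foxp3-low, out of 176 cells in the whole series. The cells were thus selected on Foxp3, which is left out of every comparison. All cells came from inbred female mice of the C57BL/6J strain that were first immunized at 7 weeks of age with 100 µg of P6, a peptide of apolipoprotein B, in complete Freund's adjuvant, boosted at week 2 in incomplete adjuvant and analysed at week 4. Cells of the inguinal and para-aortic nodes were held in the kinase inhibitor dasatinib before tetramer staining. TCRβ+ CD4+ cells gated for high CD44 and absence of CD62L, among other surface markers, were index sorted, 1 per well. Surface CD25, the protein of Il2ra, was stained but did not decide the sort. Full-length cDNA was made from each cell by Smart-Seq2 and sequenced. Both groups shared strain, sex, age, immunization and gate, and were told apart by Foxp3 reads alone. The P6+ cells were sorted from most of a sample of 1 mouse and P6- cells from the rest of the sample volume, and the labels of single cells name no mouse.

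Regulatory T cells are the CD4 T cells that restrain other immune cells, and Foxp3 is the transcription factor that defines them. They consume IL-2 through a high-affinity receptor that contains CD25, carry much CTLA-4, which removes the ligands of the co-stimulatory receptor CD28 from antigen-presenting cells, and can release TGF-β from a latent complex held on their surface by GARP, the product of Lrrc32. In lymph nodes they comprise recirculating central cells, which use CCR7 to enter, and activated effector cells, which carry markers of tissue residence.

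The labels name no animal, so each group of cells counts as 1 sample. No test was made between the groups, and all differences below are descriptions. A cell is said to hold a gene when it had 10 or more of its reads. In addition, the reads that all cells of one group had for a gene were set against all reads of those cells, as pooled counts per 1000000 reads (cpm). Ratios of pooled cpm are given as log2 values of Foxp3-high over Foxp3-low with 1 cpm added to each. Shares of cells carry exact binomial 95% intervals. These intervals reflect the counting of cells alone and leave out differences between animals. Reads carried no molecular identifiers, so several can stem from the same molecule. Foxp3-high cells had 799877 to 2702160 reads and Foxp3-low cells 522192 to 3402430, with medians of 1443570 and 1538460. The median number of detected genes was 3415 against 3446, the median number of genes held was 1399 against 1206, and the median mitochondrial share was 2.11% against 3.93%. The part of this gap in mitochondrial share in the results below was not tested. Foxp3-high cells were found under each of the 8 plate prefixes, with 1 to 5 per plate, which is 5% to 27.3% of the passing P6- cells of a plate.

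The threshold fell in a wide gap of Foxp3 reads. Among the Foxp3-low cells 85 had 0 Foxp3 reads, 20 had 1 and 5 had 2. The Foxp3-high cells began at 37 reads, the next held 325 and 378, the median was 1648, and the highest were 2763 and 7737. In cpm the Foxp3-high cells ranged from 28.8 to 4490 with a median of 1117. The 15 P6- cells that failed the filters held at most 2 Foxp3 reads. The Foxp3-high share was 14.7% of passing P6- cells (19 of 129, interval 9.11 to 22.0%).

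**Figure D1:**
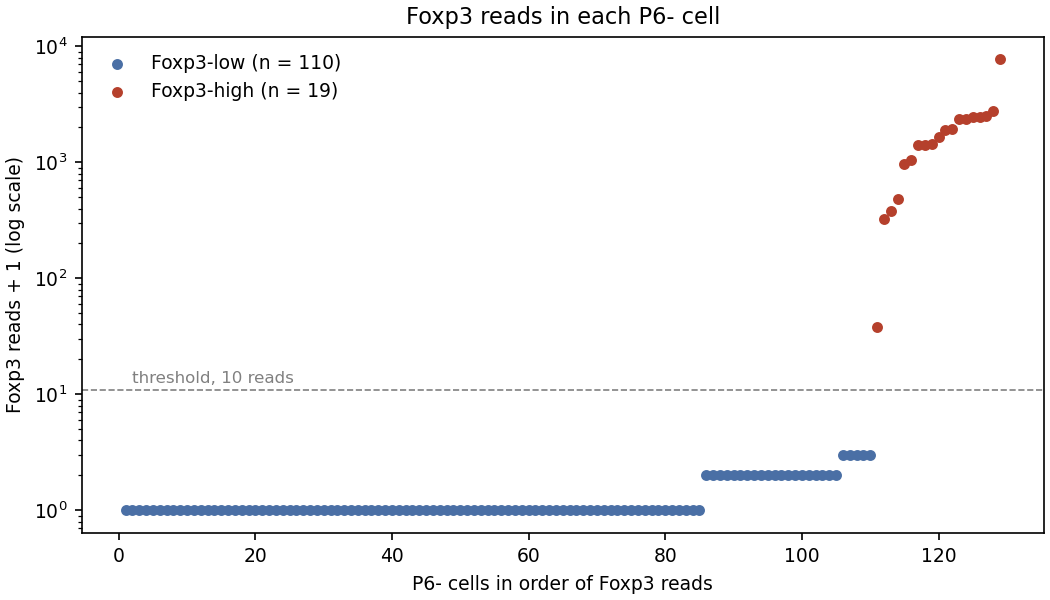
Foxp3 reads plus 1 (log scale) in each of the 129 P6- cells, in order of Foxp3 reads, with Foxp3-low cells in blue and Foxp3-high cells in red. The highest Foxp3-low cell has 2 reads and the lowest Foxp3-high cell 37, on either side of the threshold of 10 reads.

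The cells bore T cell transcripts in both groups. Trac, the constant chain of the α receptor, was held by 16 Foxp3-high and 91 Foxp3-low cells, and Cd3e by 14 and 68. The 12 general T cell genes had a median log2 ratio of -0.32. Of these 0 had at least 1 and 2 at most -1, beside 19.4% and 32.0% of all genes counted below. Cd4 was held by only 6 of 19 and 33 of 110 cells although the gate required CD4 protein, which shows how often a transcript of a present protein stayed under 10 reads in a cell. Of 12 B cell and antigen presentation genes, 9 were held by no cell, among them Cd79a, Cd79b and Ms4a1. Of 8 genes of CD8 T and natural killer cells 5 were held by no cell, Cd8a, Ncr1 and Klrb1c among them. No cell held more than 1 of these 8, and their summed level reached 1357 cpm in a Foxp3-high and 2734 cpm in a Foxp3-low cell. Of 11 myeloid genes 10 were held by no cell, including Lyz2, Csf1r, Adgre1 and Itgax, and of 8 erythroid and stromal genes 7. The myeloid exception, Cst3, was held by 6 Foxp3-high (31.6%) and 18 Foxp3-low cells (16.4%). The stromal exception, Pecam1, was held by 1 and 15 cells.

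Over all genes, 6417 had at least 5 cpm over the passing P6- cells together and were held by at least 5 of them. Of these, 1248 (19.4%) had a log2 ratio of at least 1 and 2054 (32.0%) of at most -1, and the median was -0.22. Counted by cells, 365 genes (5.69%) were held by a share of Foxp3-high cells at least 20 percentage points above that of Foxp3-low cells, and 41 (0.639%) by a share at least 20 points below. This limit of 20 points was chosen after the shares had been seen. The median difference in share over all genes was 2.15 points. The number of calls in each direction depended on how cells were summed. With the mean of log2(cpm + 1) over cells 1022 genes were higher and 210 lower, and without the cell that held most reads of each gene in each group 672 were higher and 3442 lower. Leaving out 1 of 19 and 1 of 110 cells lowers the ratio by construction, and the median of all genes was then -1.24, against which such values are to be read. The median was 0.17 with the mean of log2(cpm + 1). Shares of cells are given first below.

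Many genes known to be high in regulatory T cells were held by a larger share of Foxp3-high than of Foxp3-low cells. Of 23 such genes, with Foxp3 left out, 18 could be counted, 12 had a log2 ratio of at least 1 and 1 of at most -1, beside 19.4% and 32.0% of all genes. The list median was 1.49 against -0.22 for all genes. Of the 18, 11 were held by a share of cells at least 20 points higher and 0 by one at least 20 points lower, beside 5.69% and 0.639% of all genes. The list was written with results of these cells known, and gives no independent evidence of its direction.

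Ikzf2 encodes Helios, a transcription factor of the Ikaros family that stabilizes regulatory T cells (chromosome 1, 69531214 to 69687245 in GRCm38). It was held by 12 of 19 Foxp3-high cells (63.2%, interval 38.4 to 83.7%) and 12 of 110 Foxp3-low cells (10.9%, 5.77 to 18.3%). Its level over Foxp3-high cells ran from 0 to 3179 cpm with a median of 623 cpm, and over Foxp3-low cells from 0 to 3131 cpm with a median of 0.452 cpm. The ranges overlapped in full while the medians lay far apart. Pooled Ikzf2 was 890 cpm against 70.7 cpm, a log2 ratio of 3.64, and it was 4.18 without the cell with most reads in each group, beside -1.24 for all genes.

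Il2ra encodes the α chain of the IL-2 receptor (chromosome 2, 11642807 to 11693193). It was held by 8 Foxp3-high cells (42.1%, 20.3 to 66.5%) and 11 Foxp3-low cells (10%, 5.10 to 17.2%), and its pooled level was 288 cpm against 85.3 cpm, a log2 ratio of 1.74. The median Foxp3-high cell had 0.903 cpm of Il2ra, so that most cells chosen by Foxp3 held fewer than 10 reads of it. Il2ra and Ikzf2 were not held by the same cells throughout: 4 Foxp3-high cells held both, 8 Ikzf2 alone, 4 Il2ra alone and 3 neither. Among Foxp3-low cells 3 held both and 90 neither.

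Ctla4 (chromosome 1, 60887000 to 60915832) was held by 16 Foxp3-high cells (84.2%, 60.4 to 96.6%) against 43 Foxp3-low cells (39.1%, 29.9 to 48.9%). The median cell had 1052 cpm against 2.13 cpm, and the pooled levels were 1236 cpm and 373 cpm. Capg, an actin-capping protein abundant in activated regulatory T cells, was held by 12 against 23 cells, which is 63.2% against 20.9%. Its median was 1207 cpm against 0.844 cpm and its log2 ratio 2.41. Lrrc32, the GARP gene (chromosome 7, 98489283 to 98502181), was held by 10 cells of each group, 52.6% of Foxp3-high (28.9 to 75.6%) and 9.09% of Foxp3-low cells (4.45 to 16.1%). Its pooled level was 991 cpm against 201 cpm.

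Other members of the list were held by fewer cells. Itgae, the αE integrin chain that binds epithelial E-cadherin, was held by 7 against 3 cells, and Klrg1, a lectin-like receptor of activated regulatory T cells, by 6 against 4. These are 36.8% against 2.73% and 31.6% against 3.64%. In the Foxp3-low group 95.2% of the Itgae reads came from 1 cell, and the log2 ratio of Itgae was 3.23 with and 6.79 without the cell with most reads in each group. Izumo1r, the folate receptor 4 gene, was held by 47.4% against 30.9% of cells. Several classical genes did not set the groups apart at this depth. Ikzf4, which encodes Eos, was held by 1 Foxp3-high cell, and its log2 ratio of 1.13 became -4.87 without the cell with most reads, beside -1.24 for all genes. In the Foxp3-high group that cell had 99.8% of the reads. Nrp1, a marker of thymus-derived regulatory T cells, was held by 1 against 6 cells, 5.26% against 5.45%, with 8.47 cpm against 62.7 cpm. Gpr83 was held by 0 Foxp3-high cells and 1 Foxp3-low cell, which had 99.9% of its reads.

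**Figure D2:**
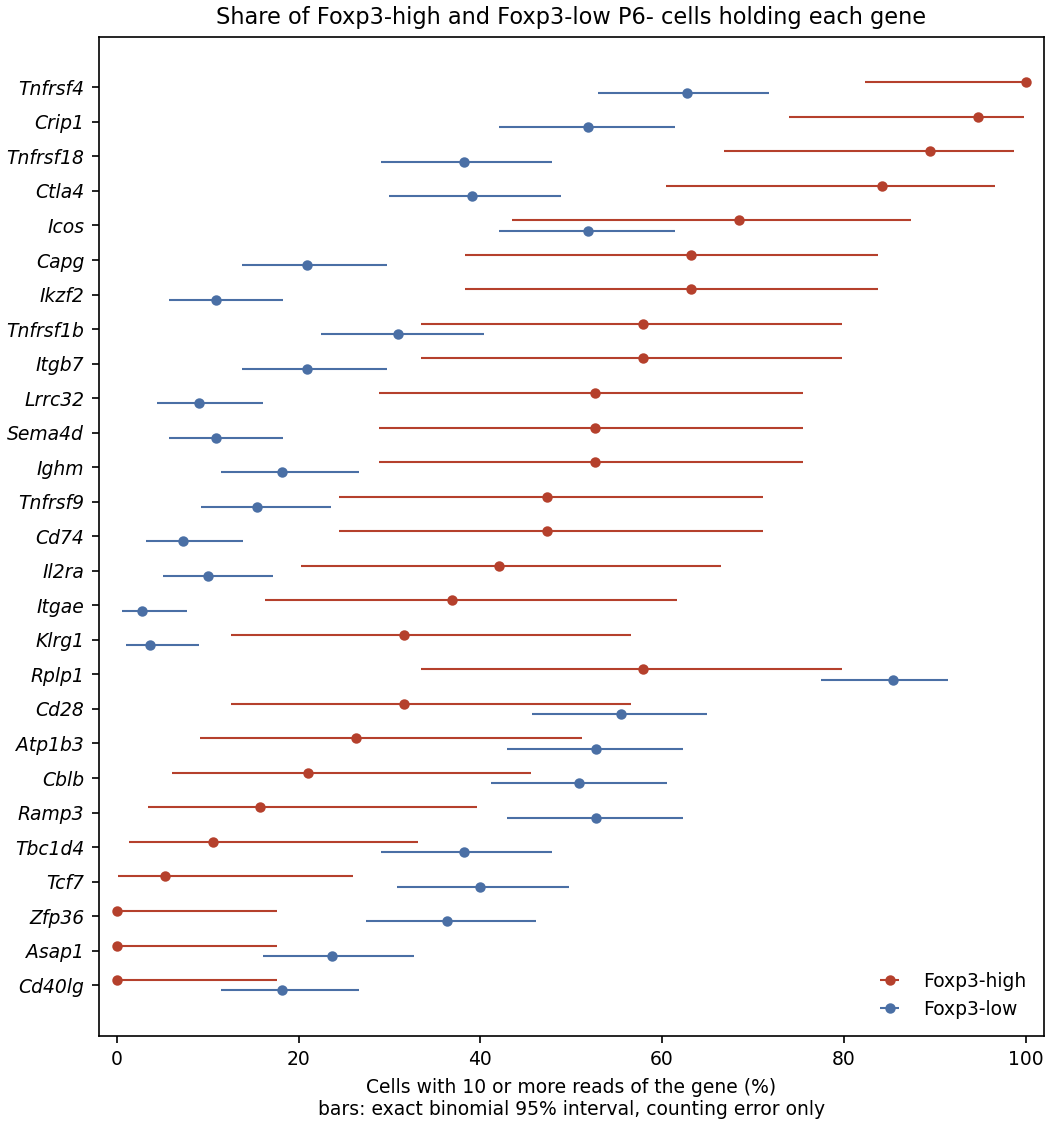
Share of cells holding each gene (10 or more reads, in %), for 19 Foxp3-high cells (red) and 110 Foxp3-low cells (blue), with exact binomial 95% intervals for counting error. Tnfrsf4, Tnfrsf18 and Ctla4 are held by over 80% of Foxp3-high cells, and Zfp36, Asap1 and Cd40lg by none of them.

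Several of the genes were often held by the same cell, as the high share of each alone would also give. Of Il2ra, Ikzf2, Ctla4, Tnfrsf18 and Lrrc32, at least 3 were held by 16 of 19 Foxp3-high cells (84.2%, 60.4 to 96.6%) and by 12 of 110 Foxp3-low cells (10.9%, 5.77 to 18.3%). None of the 5 was held by 0 Foxp3-high and 44 Foxp3-low cells. Of the whole list of 23 genes, a Foxp3-high cell held 4 to 15 with a median of 9, and a Foxp3-low cell 0 to 15 with a median of 3. The 2 groups overlapped: 8 Foxp3-low cells (7.27%) on 5 plates held 9 or more genes of the list, and 7 of these 8 had 0 Foxp3 reads. Foxp3-low cells with 1 or 2 Foxp3 reads held a median of 4 genes of the list and those with 0 reads a median of 3. The cell with the lowest Foxp3 count among the Foxp3-high cells, 37 reads, held 10 list genes, with 974 reads of Ikzf2, 1449 of Ctla4 and 3611 of Capg. The cell with the most Foxp3, 7737 reads, had 0 reads of Ikzf2, 679 of Il2ra and 1 of Capg. Across the 19 cells, whose animals are not labelled and which vary in depth, the Foxp3 level and the number of list genes held had a Pearson r of -0.31 and a Spearman rho of -0.24, given as a description.

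**Figure D3:**
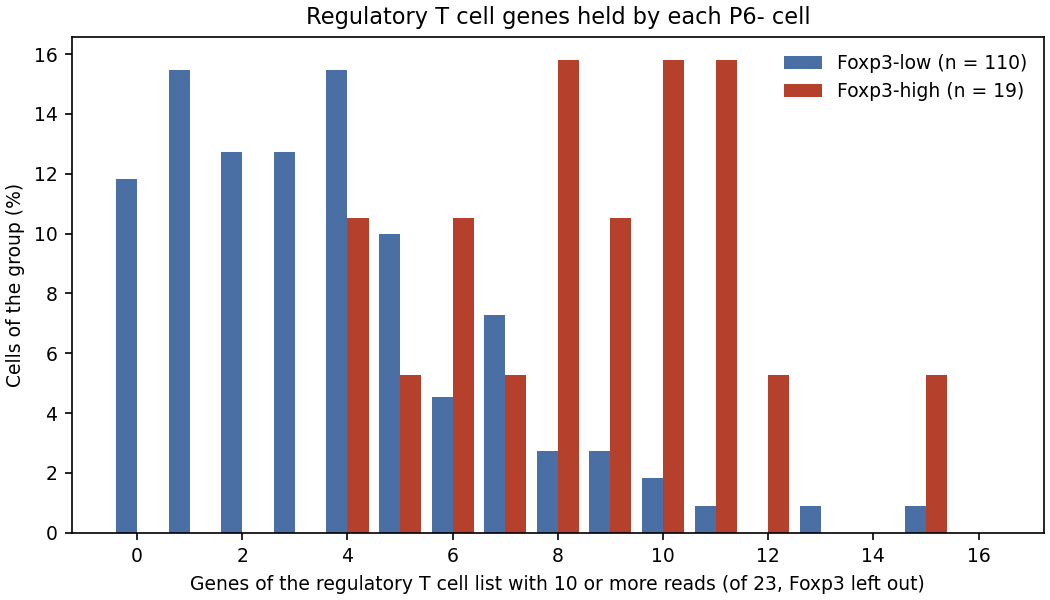
Number of genes of the regulatory T cell list held per cell (x axis, of 23 genes without Foxp3) against the share of cells of each group (y axis, in %). Foxp3-high cells (red, n = 19) range from 4 to 15 genes and Foxp3-low cells (blue, n = 110) from 0 to 15.

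To show the sequence in front of these genes, the bases before the RefSeq transcript start were read from promoter windows of GRCm38.p6, which gave 17 windows for 15 of the 23 list genes. For Ctla4, Tnfrsf9, Capg and Tnfrsf18 this start lies inside the longer gene span of the GENCODE annotation. Forkhead factors such as Foxp3 bind around the letters TGTTTA, searched here on both strands in the 250 bases before the start. These letters stood in 2 of the 17 windows (11.8%), of Tnfrsf9 and Swap70, and in 12.03% of 32851 windows of all genes. Ctla4, held by most Foxp3-high cells, had none in its window, and Tnfrsf9 had 1 on the opposite strand in the first of its windows, shown in capitals as TAAACA. The Ctla4 window is chr1:60908775-60909024 and the Tnfrsf9 window chr4:150919905-150920154, both on the plus strand.
Ctla4: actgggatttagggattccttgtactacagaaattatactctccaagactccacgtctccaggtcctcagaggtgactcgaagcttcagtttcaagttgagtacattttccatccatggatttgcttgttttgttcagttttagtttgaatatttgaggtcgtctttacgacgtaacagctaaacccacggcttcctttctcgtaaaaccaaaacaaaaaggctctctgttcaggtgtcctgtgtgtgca
Tnfrsf9: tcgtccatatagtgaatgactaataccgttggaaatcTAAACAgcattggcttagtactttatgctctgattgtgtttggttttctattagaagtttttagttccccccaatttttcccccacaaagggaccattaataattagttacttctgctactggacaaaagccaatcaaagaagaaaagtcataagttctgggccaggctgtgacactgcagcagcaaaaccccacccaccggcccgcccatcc

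Receptors of the tumour necrosis factor family carry co-stimulatory signals to T cells. Their median log2 ratio, 1.54 over 12 of 16 genes, was the highest among lists with at least 4 counted genes. Of these 12 genes 9 had a log2 ratio of at least 1 and 3 of at most -1, beside 19.4% and 32.0% of all genes. Of the 9, Tnfrsf1a had 92.2% of its Foxp3-high reads in 1 cell. By shares 4 of the 12 were at least 20 points higher and 0 lower, beside 5.69% and 0.639%. These 4, Tnfrsf4, Tnfrsf18, Tnfrsf9 and Tnfrsf1b, also belong to the regulatory T cell list, so the lists are not independent. The median difference in share was 11.5 points, against 29.9 points for the regulatory T cell list. Tnfrsf4, which encodes OX40 (chromosome 4, 156013843 to 156016612), was held by each of the 19 Foxp3-high cells and by 69 Foxp3-low cells (62.7%, 52.99 to 71.8%). Its level ran from 7.77 to 11787 cpm with a median of 4134 cpm in Foxp3-high cells and from 0 to 47855 cpm with a median of 83.6 cpm in Foxp3-low cells, where single cells reached the highest values of all. Tnfrsf18, the GITR gene that lies next to it (156026164 to 156028895), was held by 17 cells (89.5%, 66.9 to 98.7%) against 42 (38.2%, 29.1 to 47.9%), with medians of 321 cpm and 1.35 cpm. Tnfrsf1b, which encodes TNFR2, had a pooled level of 1988 cpm against 459 cpm and was held by 57.9% against 30.9% of cells. Tnfrsf9, which encodes 4-1BB, was held by 9 against 17 cells, 47.4% against 15.5%. Tnfrsf25, which encodes DR3, was held by 5 against 7 cells, 26.3% against 6.36%. The death receptor Fas went the other way, with 1 cell against 15 and 9.38 cpm against 110 cpm.

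Ctla4 and Cd28 bind the same ligands and stood apart in opposite directions. Cd28 was held by 6 Foxp3-high cells (31.6%, 12.6 to 56.6%) and 61 Foxp3-low cells (55.5%, 45.7 to 64.9%). Its median level was 2.88 cpm against 302 cpm and its log2 ratio -2.74, or -3.39 without the cell with most reads in each group, beside -1.24 for all genes. Icos was held by 68.4% against 51.8% and Tigit by 47.4% against 30.0% of cells, and their pooled ratios were within 0.3 of 0 (0.28 and -0.27). Over the 11 counted co-stimulatory and inhibitory receptors, 1 had a log2 ratio of at least 1 and 4 of at most -1, beside 19.4% and 32.0% of all genes, with a median of -0.48. Their median difference in share was 5.79 points, in the other direction.

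Of the IL-2 receptor and its signalling genes, 4 of 10 counted had a log2 ratio of at least 1 and 0 of at most -1, beside 19.4% and 32.0% of all genes, with a median of 0.65. The 4 were Il2ra, the kinase gene Jak3 and the feedback genes Socs1 and Cish. Socs1, an inhibitor of cytokine signalling, was held by 3 Foxp3-high cells, and its log2 ratio was 2.41, or 1.14 without the cell with most reads. For Cish the values were 1.81 and 0.49, and the median of all genes moved from -0.22 to -1.24 in the same way. Jak3 was held by 4 against 9 cells with a log2 ratio of 1.25, or 1.30 without the top cells.

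Most genes known to be low in regulatory T cells had lower pooled levels in the Foxp3-high cells. Of 9 counted genes 7 had a log2 ratio of at most -1 and 0 of at least 1, beside 32.0% and 19.4% of all genes, and the median was -3.57. By shares 1 of the 9, Tcf7, was at least 20 points lower, beside 0.639% of all genes. Tcf7, which encodes the factor TCF-1 of naive and memory cells (chromosome 11, 52252371 to 52283014), was held by 1 Foxp3-high cell (5.26%, 0.133 to 26.03%) and 44 Foxp3-low cells (40.0%, 30.8 to 49.8%). The 1 cell had 96.8% of the Tcf7 reads of its group. Pooled Tcf7 was 34.8 cpm against 424 cpm, a log2 ratio of -3.57, or -7.52 without the cell with most reads in each group, beside -1.24 for all genes. Cd40lg, the helper ligand that activates B cells and dendritic cells, was held by 0 Foxp3-high and 20 Foxp3-low cells (18.2%, 11.5 to 26.7%). A count of 0 of 19 cells allows a share of up to 17.6% (exact binomial upper limit). Pde3b and Dapl1 were likewise held by 0 against 9 cells each, and Bach2 by 1 against 24. The receptor gene Il7r, often low in regulatory T cells, was held by 42.1% of Foxp3-high and 23.6% of Foxp3-low cells, with pooled levels of 343 cpm and 399 cpm. Satb1, a chromatin organizer named here after its values were seen, was likewise held by a larger share of Foxp3-high cells, 57.9% against 46.4%. Il2 itself was held by 0 and 3 cells.

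**Figure D4:**
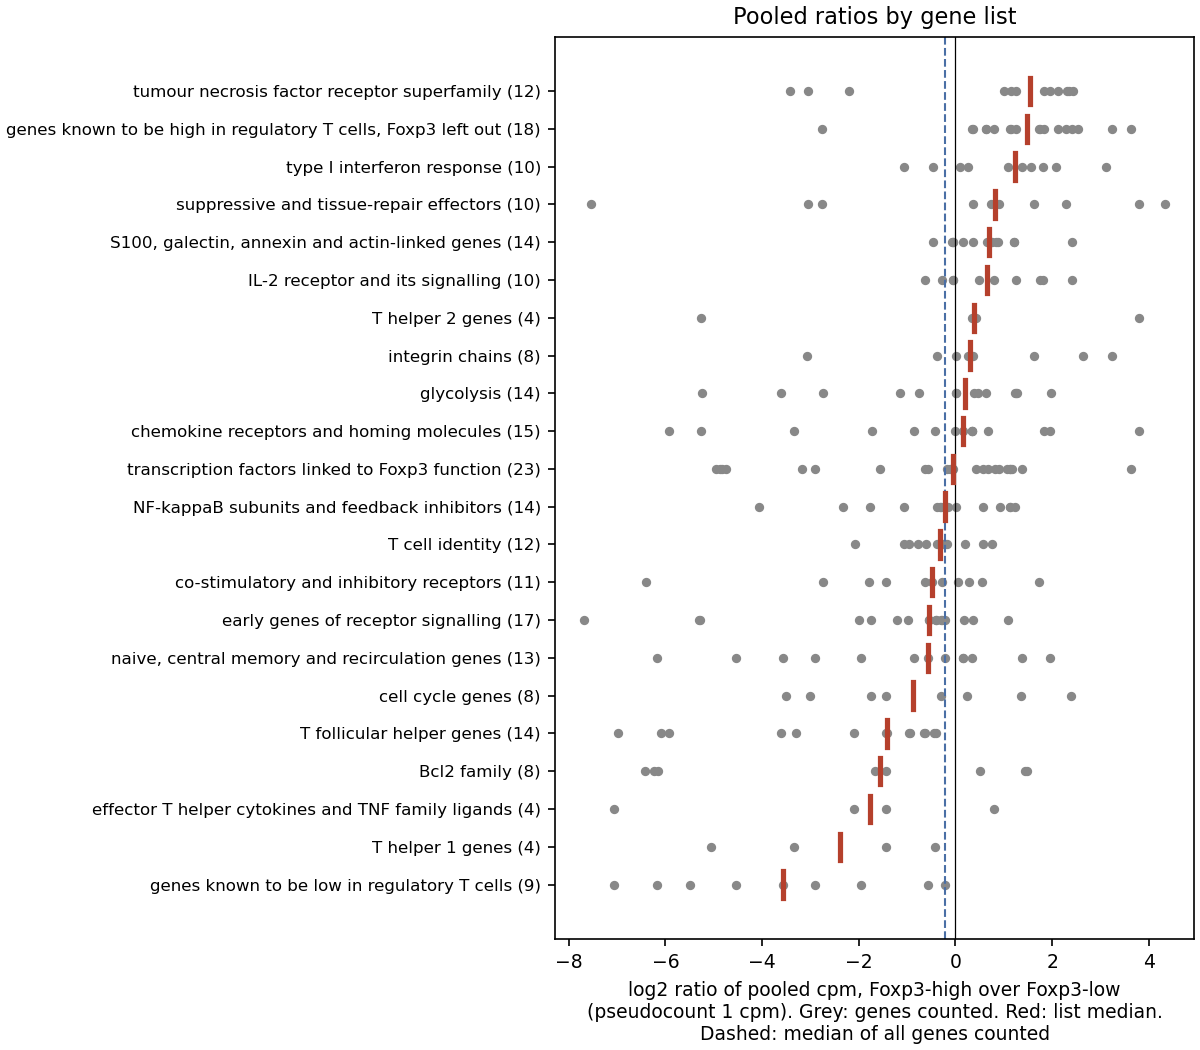
Log2 ratio of pooled cpm, Foxp3-high over Foxp3-low, for the counted genes (grey points) of each list with at least 4 of them (number in brackets), with list medians in red and the median of all 6417 genes, -0.22, as a dashed line. The tumour necrosis factor receptors and the regulatory T cell list lie highest, at 1.54 and 1.49, and the genes low in regulatory T cells lowest, at -3.57.

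Many genes of other T helper fates could not be counted. The numbers counted were 4 of 11 for T helper 1, 4 of 9 for T helper 2 and 3 of 10 for T helper 17 genes. Tbx21, which encodes T-bet of T helper 1 cells, was held by 0 Foxp3-high and 3 Foxp3-low cells. Gata3, the factor of T helper 2 cells that regulatory T cells also use, was held by 5 against 18 cells, 26.3% against 16.4%, and Rora by 52.6% against 33.6%. The T helper 1 list had 4 counted genes with a median of -2.38, of which 3 were at most -1, beside 32.0% of all genes. By shares of cells its median difference was 0.72 points, beside 2.15 points for all genes. Of the 4 counted genes 0 were at least 20 points lower, beside 0.639% of all genes. Among them Cxcr3, a chemokine receptor, was held by 1 against 11 cells. Of 24 effector cytokine and ligand genes 10 were held by no cell of either group.

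Of 14 counted T follicular helper genes 8 had a log2 ratio of at most -1, beside 32.0% of all genes, 0 had 1 or more, and the median was -1.42. By shares of cells 2 of the 14, Asap1 and Tbc1d4, were at least 20 points lower, beside 0.639% of all genes. The median difference was -4.57 points, beside 2.15 points for all genes. Asap1, an Arf GTPase-activating protein, was held by 0 of 19 and 26 of 110 cells (23.6%, 16.1 to 32.7%). Tbc1d4, a Rab GTPase-activating protein, was held by 2 (10.5%, 1.30 to 33.1%) against 42 cells (38.2%, 29.1 to 47.9%), and its log2 ratio was -3.62, or -5.66 without the top cells, beside -1.24 for all genes. Cxcr5, the receptor that draws T cells into follicles, was held by 0 against 8 and Tox2 by 0 against 7 cells. Tnfsf8, the CD30 ligand, was held by 7 against 50 cells with 373 cpm against 1606 cpm. Bcl6, the lineage factor, was held by 1 against 11 cells.

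The suppressive and tissue-repair effectors showed no common direction by pooled ratios. Of 10 counted genes 4 had a log2 ratio of at least 1 and 3 of at most -1, beside 19.4% and 32.0% of all genes, and the median was 0.81. By shares 3 were at least 20 points higher and 0 lower, beside 5.69% and 0.639% of all genes. The median difference in share was 12.3 points, beside 2.15 points for all genes. Gzmb, the protease granzyme B, was held by 4 cells of each group (21.1% and 3.64%), and its log2 ratio was 4.33, or 3.50 without the cell with most reads, which had 64.9% of the Gzmb reads of the Foxp3-high cells. Il1rl1, the IL-33 receptor ST2 of tissue regulatory T cells, was held by 5 (26.3%, 9.15 to 51.2%) against 4 cells (3.64%, 0.9995 to 9.05%). Penk, the enkephalin precursor, was held by 0 against 7 cells. Tgfb1 was held by 21.1% against 30.0% of cells, with 3.76 cpm against 38.4 cpm, so that the high Lrrc32 was not accompanied by high Tgfb1 reads. Il10 was held by 0 Foxp3-high cells and 1 Foxp3-low cell.

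Of 8 counted integrin genes 2, Itgae and Itgb7, were held by a share of Foxp3-high cells at least 20 points higher, beside 5.69% of all genes, and the median log2 ratio was 0.31. Itgb7, whose chain pairs with the Itgae chain, was held by 11 (57.9%, 33.5 to 79.7%) against 23 cells (20.9%, 13.7 to 29.7%), with medians of 712 cpm and 1.55 cpm. Itgb1 was lower, with 2 against 32 cells. Of 14 counted S100 and actin-linked genes 8 were held by a share at least 20 points higher and 0 by one at least 20 points lower, beside 5.69% and 0.639% of all genes, with a median log2 ratio of 0.69. Crip1, a small LIM protein, was held by 18 (94.7%, 73.97 to 99.9%) against 57 cells (51.8%, 42.1 to 61.4%). S100a6 was held by 42.1% against 14.5% of cells.

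The remaining lists are given by their medians. The interferon list had a median of 1.24 over 10 genes, of which 6 had a log2 ratio of at least 1 and 1 of at most -1, beside 19.4% and 32.0% of all genes. By shares 1 of the 10 was at least 20 points higher, beside 5.69%. Usp18 and Zbp1 had 80.7% and 91.96% of their Foxp3-high reads in 1 cell each. The log2 ratio of Zbp1 was 2.08, or -0.25 without the cell with most reads and -2.07 at a Foxp3 threshold of 100 reads. Of the other members, Ifi47 was held by 5 against 13 cells (26.3% against 11.8%) and Isg15 by 3 against 6 (15.8% against 5.45%). Median log2 ratios were -0.23 for 14 NF-κB genes, 0.20 for 14 glycolysis genes, -0.54 for 17 early genes of receptor signalling, -0.87 for 8 cell cycle genes and -1.55 for 8 Bcl2 family genes. By shares of cells the median difference over all genes was 2.15 points. It was 0.98 points for the Bcl2 family, -0.65 for the cell cycle genes and 4.52 for the interferon genes. For the NF-κB genes it was 6.70 points, for glycolysis 5.57 and for the early genes of receptor signalling -3.83. Of the 14 NF-κB genes 4 were at least 20 points higher and 0 lower, beside 5.69% and 0.639% of all genes. Further median log2 ratios were -0.05 for 23 cofactors of Foxp3, 0.16 for 15 trafficking genes and -0.56 for 13 genes of naive and memory cells. They were 0.38 for 4 T helper 2 genes and 0.03 for 3 T helper 17 genes. In the same order, the median differences in share were 3.25, 4.16, -5.45, 10.3 and 6.70 points. Pcna, a replication clamp, was held by 3 against 34 cells (15.8% against 30.9%), and Mki67 by 0 and 1. Nfkbid, an NF-κB regulator, was held by 2 against 22 cells. The Bcl2 relative Bcl2l11, which encodes the death protein Bim, was held by 0 against 15 cells.

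The genes at the ends of the pooled ratio, among those with 20 cpm and held by at least 50% of the cells of the higher group, included several outside these lists. At the higher end stood Ikzf2, Mier1, Smdt1, Capg, Lrrc32, Ighm, Tnfrsf1b, Aopep, Snrpe, Sema4d, Ctla4 and Itgb7. Mier1, a transcriptional repressor, was held by 57.9% against 16.4% of cells with a log2 ratio of 2.48. Smdt1, a subunit of the mitochondrial calcium uniporter, was held by 52.6% against 20%, and Sema4d, a semaphorin of lymphocytes, by 52.6% against 10.9%. Rabac1, among the largest gains in share, was held by 68.4% against 25.5% of cells, while its pooled levels were 431 cpm and 357 cpm.

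At the lower end stood Cd28, Ramp3, Actr2, mt-Nd2, Atp1b3, Tra2b, Dnajb6, Cblb, Tspan13, Stk17b and the microRNA gene Mir6236. Ramp3, a partner of calcitonin-family receptors, was held by 3 (15.8%, 3.38 to 39.6%) against 58 cells (52.7%, 42.98 to 62.3%), a share 36.9 points lower. Cblb, a ubiquitin ligase that restrains T cell activation, was held by 21.1% against 50.9%. Atp1b3, a sodium pump subunit, was held by 26.3% against 52.7% of cells. Zfp36, which destabilizes cytokine mRNAs, was held by 0 Foxp3-high and 40 Foxp3-low cells (36.4%, 27.4 to 46.1%). The mitochondrial gene mt-Nd2 was held by 52.6% against 61.8% of cells, beside the lower mitochondrial share of the Foxp3-high cells given above. Rplp1, a ribosomal protein with many near-identical copies that make its reads uncertain, was held by 57.9% against 85.5%.

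Ighm and Cd74 were higher in the Foxp3-high cells while 9 of the other 10 genes of the B cell and presentation list were held by no cell and the tenth by 1 Foxp3-low cell. Ighm, the constant region of the immunoglobulin μ chain, was held by 10 (52.6%, 28.9 to 75.6%) against 20 cells (18.2%, 11.5 to 26.7%), with pooled levels of 1646 cpm and 362 cpm. Cd74, the invariant chain of MHC class II, was held by 9 (47.4%, 24.4 to 71.1%) against 8 cells (7.27%, 3.19 to 13.8%), with 661 cpm and 154 cpm. The summed level of the 12 B cell and presentation genes ran from 0 to 10663 cpm in Foxp3-high and from 0 to 6354 cpm in Foxp3-low cells. No cell of either group held Cd79a, Cd79b, Ms4a1, Pax5, Ighd, H2-Aa or H2-Ab1.

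The Foxp3-high cells differed among themselves in their recirculation genes. Ccr7, chosen for this description after its values were seen, was held by 9 of the 19 and had a median of 7.22 cpm and a maximum of 13063 cpm. Of the 9 cells that held Ccr7, 9 held Rgs10, a regulator of G protein signalling, 7 held Foxp1, 6 Klf2, which drives genes of lymph node exit, and 6 S1pr1, the exit receptor itself. Of the 10 cells without Ccr7, 1 held Rgs10, 2 Foxp1, 2 Klf2 and 3 S1pr1. Genes held more often without Ccr7 were also chosen after their values were seen, with no list behind them. Of the cells without Ccr7, 9 of 10 held Ikzf2 and Icos, 8 held Tigit, Capg, Tnfrsf1b, Itgb7 and Ighm, 7 Tnfrsf9 and 10 S100a10. Of the 9 with Ccr7, 3 held Ikzf2, 4 Icos, 1 Tigit, 4 Capg, 3 Tnfrsf1b, 3 Itgb7, 2 Ighm, 2 Tnfrsf9 and 4 S100a10. Tnfrsf4 was held by all cells of both kinds, and Il2ra and Lrrc32 by 5 and 6 of the cells with Ccr7 and by 3 and 4 of those without.

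These genes were also counted in the Foxp3-low cells, of which 66 held Ccr7 and 44 did not. Foxp1 was held by 59.1% and 25% of them and Klf2 by 56.1% and 27.3%, more often with Ccr7 there too. Ikzf2 was held by 12.1% and 9.09%, Capg by 24.2% and 15.9%, Tigit by 30.3% and 29.5% and Rgs10 by 54.5% and 40.9%. S1pr1 was held by 63.6% and 52.3%, Ighm by 21.2% and 13.6%, Tnfrsf9 by 18.2% and 11.4% and S100a10 by 46.97% and 40.9%. Icos, held less often with Ccr7 among Foxp3-high cells, was held more often with it here, by 59.1% and 40.9%. Tnfrsf1b was held by 28.8% and 34.1% and Itgb7 by 19.7% and 22.7%. Over 6416 genes, a gap of at least 45 points between cells with and without Ccr7 was found for 24 genes (0.374%) higher with Ccr7 and 100 (1.56%) lower in the Foxp3-high cells, and for 0 genes in the larger Foxp3-low group. Counting error is wide in groups of 9 and 10 cells, and Rgs10, with a gap of 90 points, was found by looking over all these genes. The cells with and without Ccr7 had median Foxp3 levels of 1130 cpm and 1105 cpm, 3325 and 3417 median detected genes and 2.91% and 1.98% mitochondrial reads, and came from 7 and 5 plates. Across the 19 cells Ccr7 and Klf2 had a Pearson r of 0.60 and Ccr7 and Capg of -0.43 on the log2(cpm + 1) scale, which is a description over cells whose animals are not labelled.

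**Figure D5:**
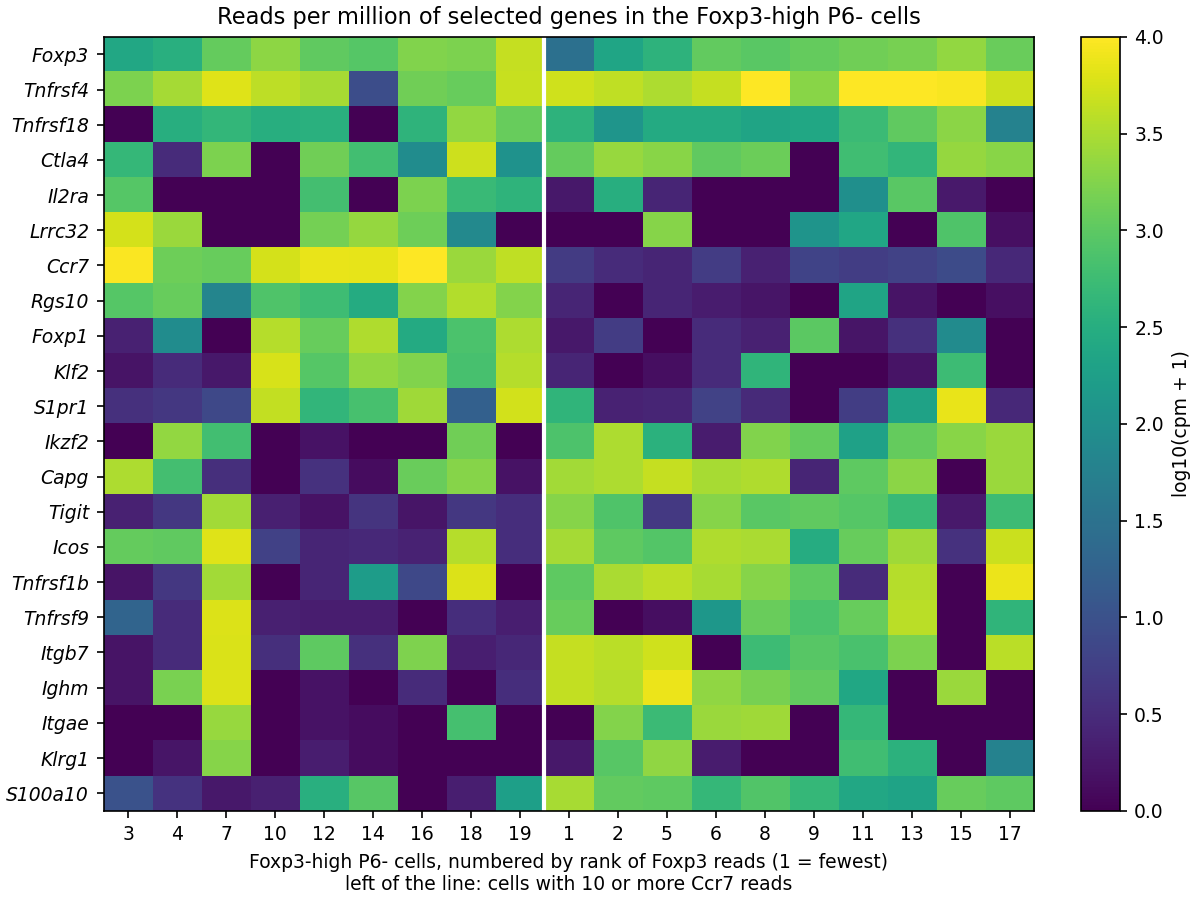
Level (log10 of cpm + 1, color) of 22 genes in the 19 Foxp3-high P6- cells, numbered by rank of Foxp3 reads, with the 9 cells that held Ccr7 left of the white line. Rgs10, Foxp1 and Klf2 are bright mostly on the left, and Ikzf2, Tigit, Itgb7 and Ighm mostly on the right.

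The receptor β chain segments of the Foxp3-high cells were diverse. A Trbv gene with 10 or more reads could be assigned to 15 of the 19 cells, and these led with 8 different segments. Trbv13-2 led in 4 cells (26.7%, 7.79 to 55.1%), Trbv3 in 3, Trbv19 and Trbv26 in 2 each, and 4 segments in 1 cell each. In Foxp3-low cells 88 of 110 had a segment and 23 segments were seen, with Trbv13-2 in 15 (17.05%, 9.87 to 26.6%). A second segment was counted in 3 Foxp3-high and 30 Foxp3-low cells, so a leading segment need not be the only one. Leading segments had at least 86 reads in Foxp3-high and at least 11 reads in Foxp3-low cells. A shared segment does not show a shared receptor, since the joined region was not read here.

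For orientation, 11 cells of the same series that bound the P6 tetramer also held 10 or more Foxp3 reads, all on 1 plate. Side by side, Tnfrsf4 and Tnfrsf18 were held by 11 and 11 of these 11 cells, Ikzf2 by 8 and Ctla4 by 9, and pooled Lrrc32 was 220 cpm and Klrg1 1601 cpm, beside 991 cpm and 364 cpm in the Foxp3-high P6- cells. No comparison is drawn, since only 3 Foxp3-high P6- cells came from that plate.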

How the data were processed

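Single P6- and P6+ cells of mouse lymph nodes were profiled by Smart-Seq2. The authors aligned reads to GRCm38 with STAR 2.6.0a, and the submitters' processing notes also name SAMtools 0.1.19 and FastQC 0.11.7. The deposited table holds raw read counts per gene and cell, and 0 of its columns lacked a sample. Here, rows that shared a gene name (81 names) were averaged, cells were filtered and divided by Foxp3 reads, reads were summed over cells of a group, and log2 ratios were taken with 1 cpm added. Genes with at least 5 cpm and 10 or more reads in 5 cells were counted. With 0 mice named by the labels, each group was 1 sample, and no test between groups was made. Passing cells had 522192 to 3402430 reads.

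The members and gene lists were chosen with earlier results of these data known. Named genes were the 12 at each end of the pooled ratio among genes with 20 cpm and held by 50% of cells of the higher group, the 8 at each end of the difference in share, up to 4 per list by ratio, and a fixed list. Ccr7, Rgs10, Foxp1, Klf2 and S1pr1 as co-detected genes, and other genes given for completeness of a list, were chosen after their values were seen. Alternatives were other Foxp3 thresholds, cell and gene filters, pseudocounts, poolings, plates and the scalings of edgeR 4.0.16 (TMM) and DESeq2 1.42.0 (size factors). The summing was tested on simulated data. Calculations used Python 3.11.15, numpy 2.4.6, pandas 2.3.3, scipy 1.17.1 and R 4.3.3. Gene positions were those of GENCODE for GRCm38. Some genes that the rule would name are not reported here.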

Additional observations from a re-analysis of the deposited data

How the results depend on the processing

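Of 1264 values, for 79 named genes under 16 alternatives, 1023 stayed within 1.5-fold of the reported ratio, 231 moved further and 10 reversed. A change of sign was called a reversal only where the reported log2 ratio was at least 1 or at most -1. Changes of sign in genes with smaller ratios were not counted apart. Under all 16 alternatives, 1 gene stayed within 1.5-fold. The mean of log2(cpm + 1) moved 65 genes, a Foxp3 threshold of 1 read moved 57 and leaving out the cell with most reads 33. Calling a cell Foxp3-high at 1 Foxp3 read put 34.1% of P6- cells in that group and reversed Cxcr5 (1.11), Gpr83 (7.68), Nfkbid (0.80), Stk17b (0.13), Tnfsf8 (0.21) and Zfp36 (0.38), and the list medians became 0.87 for genes high and -0.72 for genes low in regulatory T cells. Against Foxp3-low cells with 0 reads Gpr83 was 0.077. Zbp1 was -2.07 at a threshold of 100 reads. Without the cell with most reads Ikzf4 was -4.87, Zbp1 -0.25, the median of genes low in regulatory T cells was -4.22, and 672 genes were higher and 3442 lower, with the median of all genes at -1.24 by construction. With the mean of log2(cpm + 1) the list medians were 2.95 and -0.85, and 210 genes were lower. With 5 cpm added the median of genes low in regulatory T cells was -2.44. Without a filter on genes 2395 were higher and 4870 lower, and with genes held by 25% of cells, an alternative chosen after seeing the data, 62 and 145. Among cells with 4000 genes 23.1% were Foxp3-high. The cause of the other shifts was not tested. Weighting Foxp3-low cells by plate moved 12 genes and reversed 0. The scalings of edgeR and DESeq2 kept all 79 genes within 1.5-fold. Depth limits absence: 0 of 19 cells allows a share of up to 17.6%. No analysis paired by animal was possible because the labels give the groups no shared replicate numbers. Both groups were found on each of the 8 plates, and beyond the weighting above no comparison within plates was made.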
